A study of Mus musculus with 2 samples.

Results

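The genes of cholesterol and fatty acid synthesis and of their SREBP control were followed in kidney RNA from mice with adenine-induced kidney disease, with or without HMPA in the diet. The set held 31 genes named by their textbook roles, of 16698 genes measured. It comprised 18 enzymes of sterol synthesis, 6 regulators and carriers around SREBP, and 7 enzymes of fatty acid synthesis. All 31 had a probe above background in both conditions on both arrays.

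Both groups were male CD-1 mice, 7 weeks old at the start, on an AIN-93G diet with 0.2% adenine for 1 week. The HMPA group also received 2% HMPA by weight, the phenolic compound 3-(4-hydroxy-3-methoxyphenyl)propionic acid, and the other group received adenine alone. Adenine forms crystals in the renal tubules, both groups received it, and no kidney from mice without adenine was analysed here. The sample titles give 12 weeks of age in place of 7 and name 5 mice, without saying whether their RNA was pooled. Each of 2 arrays received both RNAs, with HMPA in Cy5 on array 1 and in Cy3 on array 2. The arrays were treated as a dye swap of 1 RNA sample per condition, so no p-value is given and the spread between animals is unknown. The value after ± says how far either array lay from their mean, and the number of arrays limits the precision.

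Cholesterol is built from acetyl-CoA by way of mevalonate, isoprenoid diphosphates, squalene and lanosterol. SREBP-2 switches on most enzymes of that route, and SREBP-1c those of fatty acid synthesis. SCAP carries the SREBP precursors from the endoplasmic reticulum to the Golgi for cleavage when sterols are low, and INSIG proteins hold SCAP back when sterols are high. In kidney, sterol and fatty acid synthesis have been studied in the tubular epithelium, and lipid accumulation is a known feature of diseased kidneys.

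A gene counts as higher or lower here by a rule of size: its mean ratio reached 2-fold, and each array showed at least 1.5-fold that way. Of the 31 genes, Hmgcs1, Mvd, Idi1, Cyp51, Nsdhl and Acss2 met the rule as higher with HMPA, which is 19.4%. Over all measured genes, 6.64% were higher by the same rule, and 7.16% of the 15254 genes that, as all 31 were, stood above background in all 4 channels. Scd2 alone was lower, 3.23% of the 31, against 7.72% of all measured genes and 8.37% of those above background throughout. The higher genes were 5 of 18 sterol synthesis enzymes, 0 of 6 regulators and 1 of 7 fatty acid synthesis enzymes. On the log2 scale, 17 of the 31 ratios were above 0 on both arrays (54.8%), against 35.9% of all measured genes, and 4 were below 0 on both. The remaining 10 changed sign between the arrays and have no direction. Arrays lay a median of 0.16 (log2) from their mean for the 31 genes, against 0.11 over all measured genes.

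**Figure D1:**
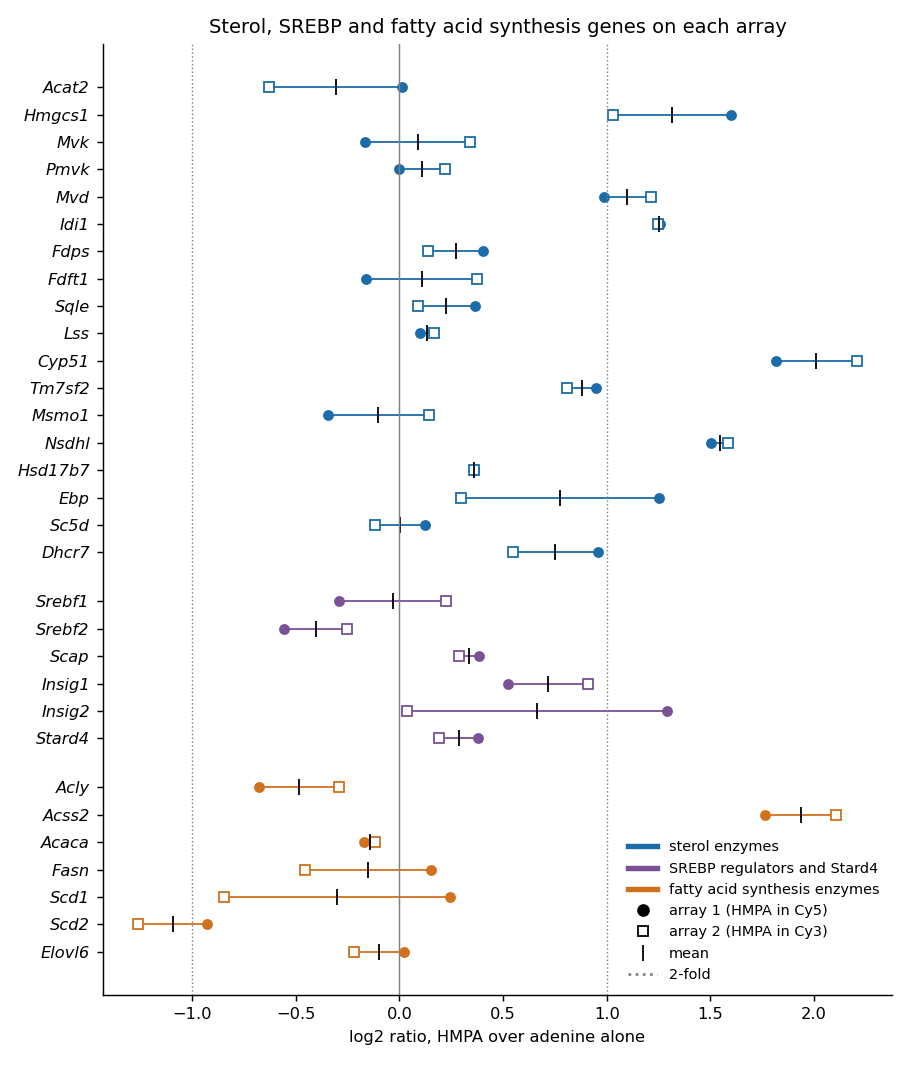
Log2 ratio of HMPA over adenine alone for each of the 31 genes (rows, grouped by role), with array 1 as filled circles, array 2 as open squares and the mean as a tick; dotted lines mark 2-fold. Cyp51, Acss2, Nsdhl, Hmgcs1 and Idi1 lie beyond 2-fold on both arrays, whereas Insig2 and Scd1 differ by more than 1 log2 unit between the arrays.

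The 18 sterol synthesis enzymes had a median log2 ratio of 0.32, with 0.38 on array 1 and 0.35 on array 2, against a median of -0.04 over all measured genes. Of these enzymes 5 were higher by the rule (27.8%) and 0 lower, and 12 were above 0 on both arrays. The calls lay in the mevalonate steps and in the steps after lanosterol, and none lay in the 3 steps between. Scaling bears on the sterol median: with each array centred on its median in place of loess it was 0.027, when the median of all genes was -0.22, so that the distance above all genes was 0.25 in place of 0.35.

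In the mevalonate steps 3 of 7 genes were higher, and the median log2 ratio was 0.27. Hmgcs1, which joins acetoacetyl-CoA and acetyl-CoA into HMG-CoA, had normalised signals (log2) of 14.43 and 14.21 with HMPA, against 12.83 and 13.18 with adenine alone. Its log2 ratio was 1.32 ± 0.28, or 2.49-fold. Mvd, which decarboxylates mevalonate diphosphate to isopentenyl diphosphate, had 9.04 and 9.21 with HMPA, against 8.06 and 7.99 with adenine alone. The signals of both conditions did not overlap for either gene. The rule of size makes such a gap likely, and its share over all measured genes was not counted. The log2 ratio of Mvd was 1.10 ± 0.11 (2.14-fold). It lay below the rule with median centring, at 0.77, and on array 1 alone, at 0.98.

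Idi1, the isomerase that makes dimethylallyl diphosphate, had 11.48 and 11.54 with HMPA, against 10.22 and 10.29 with adenine alone, a ratio of 2.38-fold with each array 0.005 (log2) from the mean. The other genes of these steps did not meet the rule. Their log2 ratios were 0.09 ± 0.25 for Mvk and 0.11 ± 0.11 for Pmvk, the kinases that phosphorylate mevalonate. Fdps, which assembles farnesyl diphosphate, had 0.27 ± 0.13. Acat2, the thiolase that supplies acetoacetyl-CoA, had -0.31 ± 0.32. The arrays gave opposite signs for Acat2, Mvk and Pmvk.

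Between farnesyl diphosphate and lanosterol no gene met the rule, and the median log2 ratio was 0.13. Squalene synthase Fdft1 had -0.16 on array 1 and 0.38 on array 2. Squalene epoxidase Sqle had 0.36 and 0.09, and lanosterol synthase Lss had 0.10 and 0.17. Sqle and Lss were above 0 on both arrays, by less than the rule asks.

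After lanosterol 2 of 8 genes were higher, and the median log2 ratio of 0.76 was the highest of the sterol steps. Cyp51, the cytochrome P450 that removes a methyl group from lanosterol, had signals of 9.36 and 9.72 with HMPA, against 7.54 and 7.51 with adenine alone. Its log2 ratio was 2.01 ± 0.19, or 4.03-fold, the largest of the 31. Nsdhl, a sterol dehydrogenase of the following demethylation, had 10.35 and 10.70 with HMPA, against 8.85 and 9.11 with adenine alone. Its log2 ratio was 1.54 ± 0.04 (2.92-fold). Both genes met the rule under all 10 alternative settings that keep the rule of size, though not each of these settings changes their ratios.

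Below the rule but above 0 on both arrays were the sterol reductase Tm7sf2, with a log2 ratio of 0.88 ± 0.07, and Dhcr7, the reductase of the last step, with 0.75 ± 0.20. Ebp, the sterol isomerase, had a mean of 0.77 ± 0.48 and only 0.30 on array 2, so the ratio rested on array 1, which alone would have met the rule. Hsd17b7, the ketoreductase that acts after Nsdhl, had 0.36 on both arrays. Msmo1, the methylsterol oxidase of the same demethylation, had -0.34 and 0.14, and the desaturase Sc5d had 0.13 and -0.12. These last 2 changed sign between the arrays, so Nsdhl, Msmo1 and Hsd17b7, which act together, had unequal ratios.

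**Figure D2:**
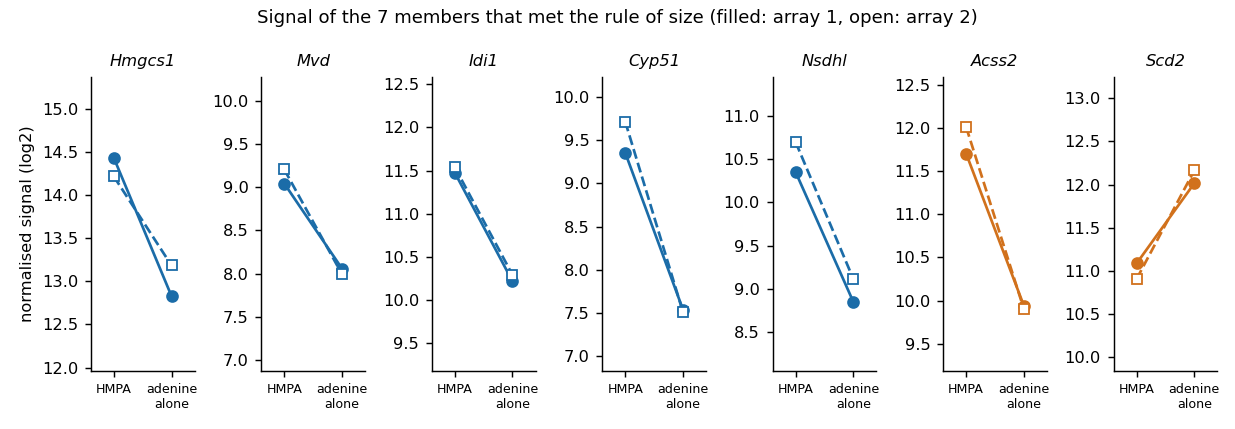
Normalised signal (log2) of the 7 genes that met the rule of size, with HMPA on the left and adenine alone on the right of each panel; lines join the channels of 1 array (array 1 solid with filled circles, array 2 dashed with open squares). Each panel spans the same log2 range around its own centre. In every panel the HMPA points do not overlap those of adenine alone, which the rule of size makes likely. Only the Scd2 lines climb toward adenine alone.

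Several genes were measured by more than 1 probe. Of 64 probes for the 31 genes 56 were kept, and each gene was represented by its brightest one. All 3 kept probes of Cyp51 gave log2 ratios between 1.57 and 2.18, and all 3 of Nsdhl between 1.54 and 1.59. For Hmgcs1 the other probes gave 0.26 and 1.16, and for Idi1 the other probe gave 0.53. The Hmgcs1 probe with 0.26 was dim, with signals from 5.96 to 6.27. So was the other Idi1 probe, with 6.17 to 6.71. Both lay near the floor set by the offset of the background correction. Averaged over their kept probes, Hmgcs1 and Idi1 fell short of the rule, at 0.91 and 0.89. The probes of Fdps, Srebf2, Acaca and Fasn disagreed in sign.

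The probe letters below, as deposited and placed on mouse build mm9, are shown because their listed intervals, 407 bases for Cyp51 and 1182 for Nsdhl, exceed the 60 bases of a probe. Each probe thus joins letters that are apart on the genome. No capitals are used in them. The log2 ratios of these probes were 1.41 and 1.74 on arrays 1 and 2 for Cyp51, and 1.20 and 1.96 for Nsdhl.
Cyp51 probe, chr5:4092033-4092439, minus strand: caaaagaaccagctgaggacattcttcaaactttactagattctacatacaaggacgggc
Nsdhl probe, chrX:70200532-70201713, plus strand: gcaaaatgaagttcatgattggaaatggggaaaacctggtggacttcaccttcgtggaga

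**Figure D3:**
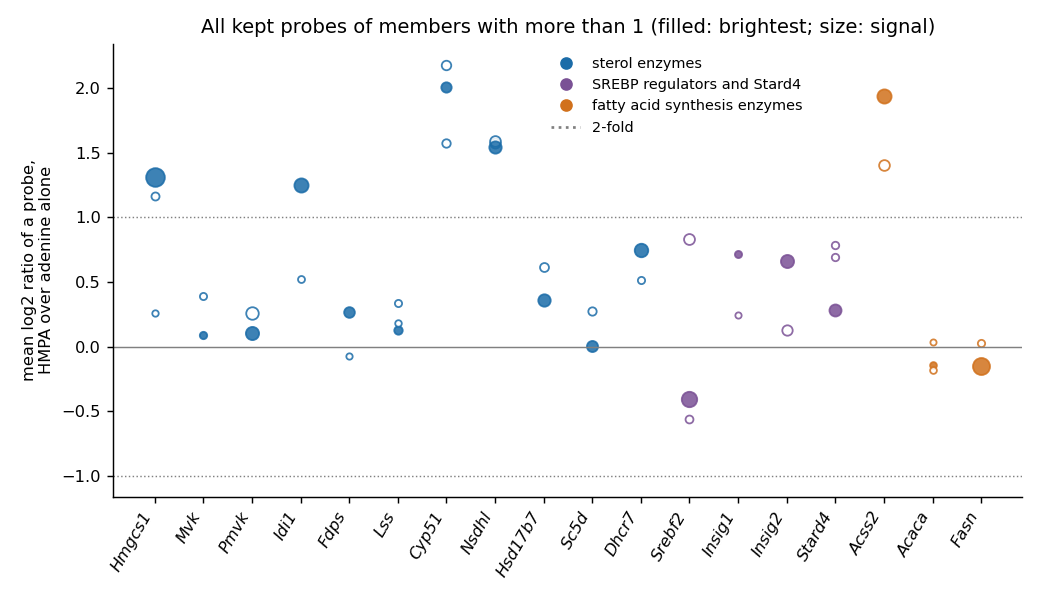
Mean log2 ratio of HMPA over adenine alone for every kept probe of the 18 genes with more than 1 kept probe; the filled circle is the brightest probe, open circles are the others, and the size of a circle follows its mean signal. The probes of Cyp51 and Nsdhl all lie beyond 2-fold (dotted line), while those of Hmgcs1 and Idi1 lie on both sides of it.

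Among the regulators no gene met the rule in either direction, and the median log2 ratio was 0.31. Srebf2, which encodes SREBP-2, had -0.56 on array 1 and -0.25 on array 2, a mean of -0.40 ± 0.15. A second Srebf2 probe gave -0.56, but another, 31708 bases upstream of the brightest, gave 0.83, so the direction of Srebf2 depends on the probe. Srebf1, which encodes SREBP-1, had -0.29 and 0.23, and its only probe did not separate the SREBP-1a and SREBP-1c transcripts. Scap had 0.38 and 0.29, above 0 on both arrays.

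Insig1, which retains SCAP and is itself a known SREBP target, had signals of 6.83 and 7.03 with HMPA, against 6.31 and 6.12 with adenine alone. The log2 ratio of Insig1 was 0.72 ± 0.19. Its signals lay near the floor set by the offset of the background correction. With a smaller offset of 16 the ratio was 1.12, with Feature Extraction's own ratios 1.76, and Insig1 met the rule in both. Insig2, its relative, had 1.29 on array 1 and 0.04 on array 2, and Stard4, a cytosolic sterol carrier, had 0.38 and 0.19. Array 1 alone decided the ratio of Insig2. The other kept probe of Insig2 gave a mean of 0.13, with 0.54 on array 1 and -0.28 on array 2. For Stard4 the other kept probes gave 0.69 and 0.78.

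The 7 fatty acid synthesis enzymes had a median log2 ratio of -0.15, with 0.024 on array 1 and -0.29 on array 2, so the sign of the median was not stable between arrays. The sterol median was higher than this one by 0.46 (log2), by 0.36 on array 1 and by 0.64 on array 2, and with 1 RNA sample per condition that difference could not be tested. Acss2, which makes cytosolic acetyl-CoA from acetate, was the exception. It had signals of 11.70 and 12.01 with HMPA, against 9.94 and 9.90 with adenine alone, and a log2 ratio of 1.94 ± 0.17 (3.82-fold). Its second kept probe gave 1.41. Acss2 met the rule under all 10 alternatives that keep the rule of size.

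Scd2, a stearoyl-CoA desaturase that introduces the double bond of oleate, was lower with HMPA. Its signals were 11.09 and 10.91 with HMPA, against 12.02 and 12.17 with adenine alone, a log2 ratio of -1.09 ± 0.16, or 2.13-fold lower. On array 1 alone the ratio was -0.93, short of the rule. Its relative Scd1 had 0.25 on array 1 and -0.85 on array 2 and has no direction.

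The core of the pathway stayed within the rule. Acly, which splits citrate to acetyl-CoA, had log2 ratios of -0.68 and -0.29, and Acaca, the carboxylase that makes malonyl-CoA, had -0.17 and -0.12. Fatty acid synthase Fasn had 0.15 and -0.45, and the elongase Elovl6 had 0.02 and -0.22. Of these 4 genes Acly and Acaca were below 0 on both arrays, though 1 of the other kept probes of Acaca had the opposite sign and all of them were dim. Acss2 and Acly, the alternative sources of cytosolic acetyl-CoA, thus had ratios of opposite sign, 1.94 and -0.48.

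Markers of kidney cell types differed between the groups. In bulk kidney RNA, fewer cells of a type and less RNA per cell cannot be told apart. Of 10 proximal tubule markers 9 were higher with HMPA, with a median log2 ratio of 2.63 and a mean signal of 13.75 and 13.79 with HMPA, against 11.27 and 11.62 with adenine alone. Slc34a1, Lrp2, Cubn and Slc5a2 had 2.68, 2.73, 2.20 and 1.75, and Aqp1, at 0.69, was the marker that did not meet the rule. Of 8 markers of later tubule segments 5 were higher, with a median of 1.16 and a mean signal of 10.76 and 10.92 with HMPA, against 9.70 and 9.68 with adenine alone. The defining kidney markers were thus well above background in both groups, and the share of tubule RNA in the sterol ratios was not tested.

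All 10 macrophage markers were lower with HMPA (median log2 ratio -2.10), with a mean signal of 9.08 and 8.98 with HMPA, against 11.12 and 11.08 with adenine alone. Of 8 fibroblast markers 7 were lower (median -1.83), with 10.13 and 9.96 with HMPA, against 12.16 and 12.09 with adenine alone. Of 8 measured adipocyte markers 4 were lower (median -1.09), with 7.58 and 7.42 with HMPA, against 9.09 and 9.05 with adenine alone. Adipoq had -2.18 and Cidec -2.30, whereas Plin1 had -0.90 and Retn -0.20. Plin1 was not well above background on every array with HMPA, and its ratio was -2.87 with Feature Extraction's ratios, which met the rule. In all 3 lists the median was below 0, as was the ratio of Scd2, and the part of these cells in it was not tested.

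The neighbouring pathways were described from 6 lists with 72 measured genes of 76, of which 15 were higher by the rule (20.8%) and 4 lower (5.56%). Over all measured genes these shares were 6.64% and 7.72%, and the counts of the single lists stand beside the same background. The median log2 ratio was 0.35, against -0.04 over all measured genes. Among isoprenoid branches 2 of 9 were higher: Pdss1, which makes the ubiquinone side chain, with 1.43 ± 0.13, and Nus1, a subunit of the dolichol-making enzyme, with 1.20 ± 0.20. The list median was 0.33. Nus1 was below the rule with median centring, at 0.99, and by a small margin on array 2 alone.

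Among genes of SREBP processing and sterol-regulated degradation 2 of 11 were higher and 0 lower (median log2 ratio 0.22). Erlin1, a scaffold of sterol-regulated degradation in the endoplasmic reticulum, had signals of 10.38 and 10.61 with HMPA, against 9.51 and 9.33 with adenine alone. Its log2 ratio was 1.07 ± 0.21, and it met the rule neither with median centring nor on array 1 alone. The SREBP proteases Mbtps1 and Mbtps2 had -0.50 and 0.22, inside the rule. Other kept probes of Mbtps1 gave -0.07 and 0.33, so its direction depends on the probe.

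Sterol handling held the largest ratios of these lists, in opposite directions. Cyp7b1, which hydroxylates oxysterols on their way to bile acids, had 12.99 and 13.04 with HMPA, against 10.32 and 10.25 with adenine alone (2.73 ± 0.06, log2). Ch25h, which makes 25-hydroxycholesterol and is known from macrophages, had 7.70 and 7.59 with HMPA, against 10.16 and 10.22 with adenine alone (-2.55 ± 0.08). The other 13 of the 15 measured genes of transport, esterification and oxysterols met the rule in neither direction, and the list median was 0.26.

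Of 8 genes listed for the oxysterol receptor LXR and its targets, 1 was higher and 3 lower, with a median log2 ratio of 0.09. The lower ones were Arl4c with -2.49 ± 0.30, and the cholesterol exporters Abcg1 with -1.76 ± 0.45 and Abca1 with -1.05 ± 0.41. On array 1 alone Abca1 had -0.64, short of the rule. The other kept probe of Arl4c gave -0.89, also short of it. Smpdl3a, a phosphodiesterase, was higher with 1.87 ± 0.28, and the receptor genes Nr1h3 and Nr1h2 had 0.90 and 0.18, inside the rule. The macrophage markers above were lower together with Abcg1, Abca1, Arl4c and Ch25h, and their part in these ratios was not tested.

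Genes around the core of fatty acid synthesis were described next. Of 20 measured genes of supply, elongation and desaturation 5 were higher and 0 lower (median log2 ratio 0.56). Malic enzyme Me1, a source of NADPH, had 12.31 and 12.66 with HMPA, against 10.35 and 10.37 with adenine alone (2.12 ± 0.17). The elongase Elovl2 had 1.56 ± 0.12, the dehydratase Hacd2 had 1.55 ± 0.11 and the acyl-CoA synthetase Acsl3 had 1.45 ± 0.03. The other kept probe of Hacd2 gave 0.79, short of the rule, and that of Me1 gave 1.87. Among 9 genes of triglyceride assembly 4 were higher, 0 lower and all 9 above 0 in the mean, with a median of 0.88. These were the acyltransferases Mogat1 with 2.34 ± 0.41, Dgat2 with 1.97 ± 0.06, Gpam with 1.72 ± 0.22 and Gpat3 with 1.35 ± 0.35. On array 2 alone Gpat3 was below the rule by a small margin, at 0.99. The other kept probe of Gpam gave 0.61, short of the rule, whereas those of Mogat1, Dgat2 and Gpat3 gave 1.15 to 2.55. Of the 10 proximal tubule markers 9 were higher too, and of the 8 markers of later segments 5, and their part in these ratios was not tested.

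**Figure D4:**
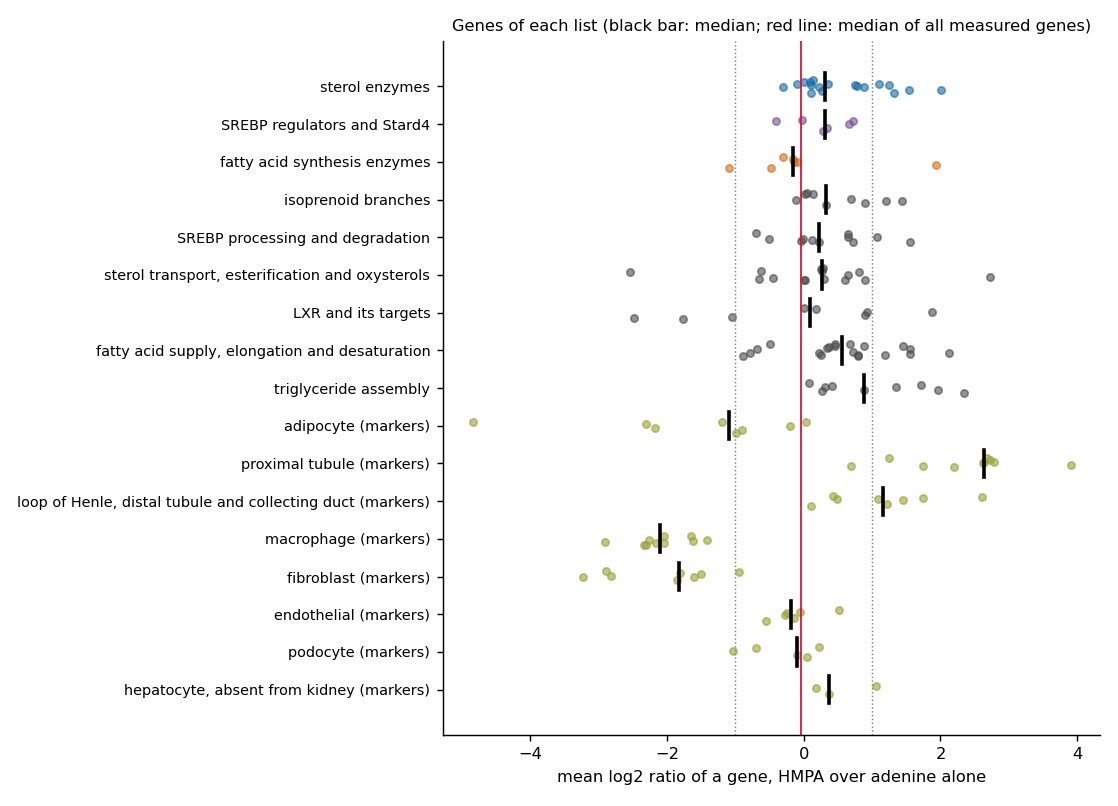
Mean log2 ratio of HMPA over adenine alone for each measured gene (points) of the sterol, regulator and fatty acid groups, the 6 neighbouring pathway lists and the 8 cell type marker lists, with the list median as a black bar and the median of all measured genes as a red line. The triglyceride list has the highest median of the pathway lists, at 0.88, below those of the tubule markers, at 2.63 and 1.16. The macrophage and fibroblast lists have the lowest medians, at -2.10 and -1.83, while the lowest single point, at -4.84, is an adipocyte marker.

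The promoters were read to see which known control sequences the higher genes hold. RefSeq windows on mouse build GRCm38.p6, from 250 bases before to 50 after an annotated start, were found for 25 of the 31 genes. Each motif was searched on both strands as exact letters. The NF-Y box, CCAAT, binds a factor that acts with SREBP at many sterol genes. It was found in 21 of 25 genes (84.0%), 14 of 15 sterol enzymes and all 6 higher genes, against 41.1% of all 27025 genes with a window. Most of the 25 genes that were not higher held it as well, such as Mvk with 5 boxes. Since 20 of the 25 genes have 1 window, the share of single windows, 37.4% of 32851, is the closer comparison for most of them. Neither share was limited to genes measured in these kidneys, as the 25 genes were.

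The GC box, GGGCGG, a site of Sp1, was also found in 21 of 25 genes, against 38.2% of all genes. The E-box CACGTG was found in 5 of 25 genes, none of them among the 6 higher genes, against 8.09% of all genes. The spelled sterol regulatory element TCACNCCAC, the SREBP site, was found in Hmgcs1 alone, against 1.44% of all genes, and the nuclear receptor repeat (AGGTCA, any base, AGGTCA) in none of the 25, against 0.0481%. These shares of all genes were likewise not limited to genes measured here. A match is a description of letters, and exact letters miss variant sites.

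Below are the windows of Hmgcs1, the 1 gene with the spelled sterol regulatory element, and of Cyp51, Nsdhl and Acss2. Cyp51, Nsdhl and Acss2 are the members that met the rule of size under every alternative that keeps that rule. Capitals mark CCAAT, its reverse complement ATTGG and, in Hmgcs1, the sterol regulatory element, whose first base lies 137 bases before the start. Each is read 5′ to 3′ on the strand of its gene.
Hmgcs1 promoter, chr13:119690101-119690400, plus strand: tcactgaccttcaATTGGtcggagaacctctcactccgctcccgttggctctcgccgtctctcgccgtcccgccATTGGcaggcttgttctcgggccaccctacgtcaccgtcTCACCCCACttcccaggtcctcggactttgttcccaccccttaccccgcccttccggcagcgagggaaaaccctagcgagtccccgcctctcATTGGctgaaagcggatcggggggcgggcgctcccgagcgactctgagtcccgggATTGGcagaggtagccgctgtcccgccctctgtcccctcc
Cyp51 promoter, chr5:4104648-4104947, minus strand: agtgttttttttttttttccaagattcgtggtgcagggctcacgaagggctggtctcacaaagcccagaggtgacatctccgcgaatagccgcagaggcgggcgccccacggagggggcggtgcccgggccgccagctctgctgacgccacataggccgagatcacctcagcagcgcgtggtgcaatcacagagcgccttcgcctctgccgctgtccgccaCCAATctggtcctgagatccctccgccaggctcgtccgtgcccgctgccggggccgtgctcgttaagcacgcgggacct
Nsdhl promoter, chrX:72918271-72918570, plus strand: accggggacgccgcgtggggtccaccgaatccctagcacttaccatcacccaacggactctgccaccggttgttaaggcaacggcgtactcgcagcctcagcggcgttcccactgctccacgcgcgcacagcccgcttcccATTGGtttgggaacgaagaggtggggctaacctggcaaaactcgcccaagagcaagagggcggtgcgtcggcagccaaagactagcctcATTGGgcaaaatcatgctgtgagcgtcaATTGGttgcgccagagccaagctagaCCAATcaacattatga
Acss2 promoter, chr2:155517793-155518092, plus strand: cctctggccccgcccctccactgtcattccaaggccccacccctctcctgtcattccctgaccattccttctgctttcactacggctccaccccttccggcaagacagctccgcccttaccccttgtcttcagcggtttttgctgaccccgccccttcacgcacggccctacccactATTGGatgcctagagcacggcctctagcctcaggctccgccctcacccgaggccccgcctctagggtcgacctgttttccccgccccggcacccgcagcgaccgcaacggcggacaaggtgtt
In these windows Hmgcs1 and Nsdhl each held 4 NF-Y boxes, and Cyp51 and Acss2 held 1 each, 29 and 73 bases before the start. Among the genes shown, the log2 ratio was larger for Cyp51 and Acss2 than for Hmgcs1 and Nsdhl. Whether the number of boxes goes with the ratio over all members with a window was not tested.

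**Figure D5:**
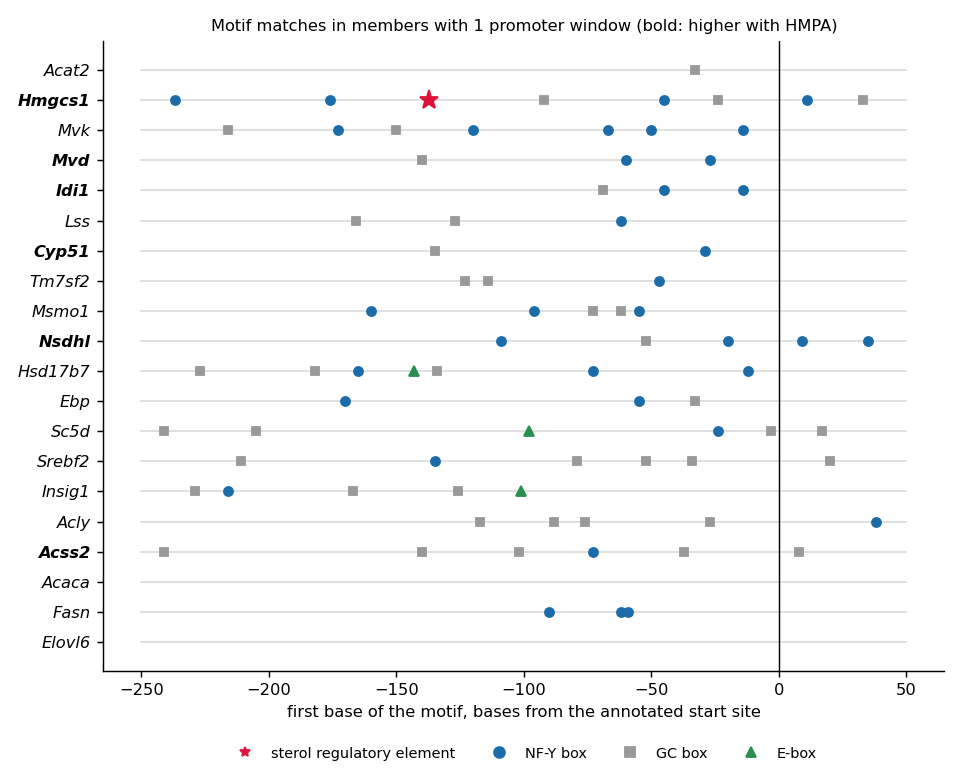
Positions of motif matches, in bases from the annotated start site, in the 20 genes with 1 promoter window; bold names are the 6 genes higher with HMPA. Blue circles (NF-Y boxes) occur in each bold row, and the red star (sterol regulatory element) in that of Hmgcs1 only.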

How the data were processed

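Kidney RNA of the HMPA and adenine groups was hybridised on 2 dual-colour Agilent arrays from 1 slide and 1 scan. QIAzol was used for extraction and a T7 primer for dye-labelled cRNA, per the labels. Per the file headers, Feature Extraction 12.2.0.7 quantified the scans, while the submitters' processing notes name version 9.5. Spot and background signals are deposited as intensity, not normalized, per the file headers. The deposited log10 ratio sets red over green, background-subtracted and dye-normalized by Feature Extraction. A second deposited table gives these values again, within 0.00499, with a median of 0 in each column, and is not turned for the dye swap.

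Each array had 43379 gene spots, of which 281 and 297 were flagged as unreliable on arrays 1 and 2 and 0 were saturated. Spots well above background made up 57.9% and 61.2% in the HMPA channel and 60.9% and 67.9% in the adenine channel. The median SD of repeat spots was 0.10 and 0.09 (log2).

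Background was corrected with normexp (offset 50) and ratios by loess within each array, in limma 3.58.1 under R 4.3.3. Channel signals were set to a common scale with Aquantile, which leaves ratios unchanged. On array 2 the sign was flipped, so that every ratio is HMPA over adenine alone. A probe was kept if well above background in 1 condition on both arrays (25138 of 41174). The brightest kept probe stood for a gene. Across genes, which share these libraries and are no replicates, the arrays correlated at r = 0.889. The arrays' titles do not say whether their RNA came from separate animals. The steps were checked on simulated data. Counting, motif searches and figures used Python 3.11.15, numpy 2.4.6, pandas 2.3.3 and matplotlib 3.10.9. Kept probes were named from a RefSeq table by accession (21374), symbol (1932) or older symbol (8), and 1824 kept the file's name. Positions of probes come from the files and refer to mm9.

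The members, the lists, the rule of size and the motifs were chosen with earlier results of these data known. All 31 members are named; of each pathway list, the members that met the rule, at most 4 by size; of each marker list, the first 4. Some genes chosen this way are not reported here. Values of Mbtps1, Mbtps2, Nr1h2, Nr1h3 and Aqp1 were added to these, and were chosen after their values were seen. The 11 alternatives changed the offset, background correction, scaling, ratio source, probe summary, filter, rule and arrays.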

Additional observations from a re-analysis of the deposited data

How the results depend on the processing

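Of the 10 alternatives that keep the rule of size, Cyp51, Nsdhl and Acss2 met it under all, Hmgcs1 and Idi1 under 9, Mvd under 8 and Scd2 under 9. The changes of filter left the ratios of these genes as they were, and the value table gives Feature Extraction's ratios again, so these alternatives are not all separate checks. All 419 values of the 42 member, pathway and marker genes that met the rule and were followed across settings kept their sign. The rule itself asks for the same direction on each array, so the values of single arrays could not change sign. With the mean over all kept probes 3 sterol enzymes were higher in place of 5, when 5.97% of all measured genes were. The sterol median log2 ratio was then 0.36. That median was 0.34 with an offset of 16, 0.37 with Feature Extraction's ratios or the value table, 0.027 with median centring, and 0.35 to 0.38 on single arrays. The fatty acid median was -0.43 with median centring and turned to 0.024 on array 1 alone, with -0.29 on array 2 alone. The difference of both medians was 0.68 with Feature Extraction's ratios or the value table. On array 1 alone 0 members were lower, against 7.67% of all measured genes, and on array 2 alone 1 was, against 8.89%. Over all genes, 2043 were higher and 2461 lower with Feature Extraction's ratios, and 2040 and 2459 with the value table. With median centring 749 were higher and 1973 lower, so that 27.5% of calls were higher, against 46.2% with loess. A rule of 1.5-fold gave 2255 higher (13.5%) and 2699 lower genes (16.2%), and 30 higher and 10 lower genes in the 6 pathway lists. By that rule 9 members were higher, with Tm7sf2, Dhcr7 and Insig1 added, and 1 lower. Causes were not tested. Each ratio already pairs both conditions within an array. No paired test was run, because the arrays were treated as a dye swap of 1 RNA sample per condition. Slide and scan could not be used as a block, since both arrays share them. Signal over background limits the dim genes, such as Insig1.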

Other observations

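Marker lists of further cell types showed smaller or dimmer ratios. Of 6 endothelial markers 0 met the rule of size in either direction, with a median log2 ratio of -0.19: Pecam1 had -0.15, Cdh5 -0.28, Kdr 0.51 and Emcn -0.55. Of 5 podocyte markers 1 was lower and 0 higher, with a median of -0.09. Nphs1 and Podxl, which build or coat the podocyte foot processes, had 0.05 and -0.09, and Wt1 had -0.70.

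Among hepatocyte transcripts the ratio of albumin, Alb, changed with the background correction. It had signals of 6.72 and 7.00 with HMPA, against 5.80 and 5.82 with adenine alone, and a log2 ratio of 1.05 ± 0.13. In the adenine channel it was well above background on 1 of 2 arrays, so its ratio is uncertain. With Feature Extraction's ratios it was 4.26, and with an offset of 16 it was 1.84. The lipoprotein gene Apoa2 had 6.01 and 6.25 with HMPA, against 5.79 and 5.73 with adenine alone. It was not well above background with adenine alone on either array, so its ratio is a bound: at least 1.26-fold higher with HMPA, against the background floor. The cause of the difference between settings was not tested.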
